A study of Mus musculus with 6 samples.

Results

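The Speer testis gene clusters are 2 stretches of mouse chromosome 5 that were chosen by position. Cluster 1 takes all probes that start between 14.9 and 16 Mb, and cluster 2 those between 26 and 27 Mb, on build mm9. They hold 152 of the 174638 probes of the array that are not controls. Runs of at least 3 probes with starts at most 1000 bp apart were joined into regions, which gave 11 regions in cluster 1 and 8 in cluster 2, of 21987 in all. The stretches were picked with their low ratios known, so the levels below are a description and carry no test. In order along the chromosome the regions are called A to H, J, K and L in cluster 1 and M to T in cluster 2, without the letter I.

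The study measured DNA methylation in offspring of mouse dams that had been kept on a chromium restriction diet or on a control diet. These groups are called restricted and control below, and DNA from 3 offspring samples of each, taken at 32 weeks and labelled as liver, was hybridised to 1 array per sample. Strain, sex and litter are not given in the sources used here, and the label on DNA extraction speaks of fat where the others name liver. The tissue could not be checked against marker genes on these arrays. Nothing in the labels says whether the samples came from separate litters, so p-values cover only the spread between these 6 arrays.

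Speer genes encode glutamate-rich proteins of the male germ line, and their transcripts are known from testis, in the late stages of sperm formation. They exist in many near-identical copies that lie in tandem. In methylated DNA immunoprecipitation an antibody draws down fragments that carry methylated cytosines, most of them in CG dinucleotides, and this fraction (red dye) is compared on the array with the untreated input DNA (green dye). A log2 ratio above 0 means that a probe received more precipitated than input DNA relative to the median probe of its array. A probe for a sequence with many copies can take up DNA from all of them.

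The RefSeq table for build GRCm38.p6 names 15 Speer genes, and 11 of them lie on chromosome 5, 2 as pseudogenes. It places Speer4e, Speer8-ps1, Speer4d, Speer4cos and Speer4c among the 20 genes between Pclo and Cacna2d1, and Speer4a among the 24 genes between Actr3b and Dpp6. The array uses the older build mm9, so no probe was assigned to a gene. The RefSeq promoter table holds 10 promoters of 9 Speer genes on chromosome 5. The antibody binds methylated cytosine, which in liver lies mostly in CG, so 3 of them and a neighbouring gene's promoter are shown for their CG content. The 250 bases before the start are printed 5′ to 3′ on the strand of the gene, in GRCm38.p6 coordinates, with every CG in capitals.
Speer4e chr5:14938476-14938725 minus strand: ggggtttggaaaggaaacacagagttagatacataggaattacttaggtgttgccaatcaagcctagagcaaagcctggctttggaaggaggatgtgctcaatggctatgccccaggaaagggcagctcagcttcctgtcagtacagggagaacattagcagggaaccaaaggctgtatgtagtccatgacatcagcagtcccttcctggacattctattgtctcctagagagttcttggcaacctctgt
Speer4c chr5:15714272-15714521 minus strand: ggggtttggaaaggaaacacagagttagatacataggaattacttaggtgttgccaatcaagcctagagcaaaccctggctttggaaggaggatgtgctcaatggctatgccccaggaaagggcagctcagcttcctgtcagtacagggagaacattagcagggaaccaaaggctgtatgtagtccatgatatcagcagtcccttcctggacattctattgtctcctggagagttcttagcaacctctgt
Speer4a chr5:26039506-26039755 minus strand: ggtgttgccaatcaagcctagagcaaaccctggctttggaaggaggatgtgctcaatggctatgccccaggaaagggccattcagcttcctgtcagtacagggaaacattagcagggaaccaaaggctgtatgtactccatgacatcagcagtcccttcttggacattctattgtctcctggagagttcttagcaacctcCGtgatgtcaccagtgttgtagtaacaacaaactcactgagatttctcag
Cacna2d1 chr5:15934441-15934690 plus strand: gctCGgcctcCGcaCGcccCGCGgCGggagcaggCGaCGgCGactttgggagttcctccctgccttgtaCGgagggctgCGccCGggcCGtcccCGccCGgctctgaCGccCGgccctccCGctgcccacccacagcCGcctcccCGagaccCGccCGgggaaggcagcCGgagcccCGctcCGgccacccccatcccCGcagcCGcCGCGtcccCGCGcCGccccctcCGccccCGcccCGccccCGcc
The promoters of Speer4e and Speer4c hold 0 CG in these 250 bases, and that of Speer4a holds 1. Of the 10 Speer promoters on chromosome 5, 8 have none, whereas 7.9% of all 32851 promoters in the table have none and the median is 6. The 10 include those of Speer1, Speer3, Speer4f1, Speer4f2 and Speer4b, which lie outside the 2 groups of genes named above. CG reads the same on both strands, so a single search covers both. The promoter of Cacna2d1, which encodes a calcium channel subunit and follows the first group of Speer genes, holds 36, and that of Pclo, a presynaptic scaffold gene before the group, holds 25. The 3 promoters of Dpp6, which follows Speer4a and encodes a potassium channel subunit, hold 8, 6 and 10, near the median of all promoters. Over their full 300 bases, the 7 Speer4 promoters were identical at 88.7% to 98.7% of the 231 to 300 aligned bases in the 21 pairs. Speer4e and Speer4c differed least, with 296 of 300 bases in common. Speer4e and Speer4a, from the different groups, shared 243 of 253 aligned bases.

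In cluster 1, 9 of the 11 regions had a mean log2 ratio under -2 over the 6 arrays, a threshold taken from an earlier account of these data. On the whole array 345 of 21987 regions (1.57%) were that low. The lowest was region D, from 14978403 to 14980106, with 9 probes. Its log2 ratio was -4.85, -5.09 and -4.43 on the restricted arrays, in the order of their replicate numbers, and -5.23, -4.40 and -4.80 on those of the controls. Control array 1 was the lowest and control array 2 the highest, so the control values enclosed all 3 of the other group. Only 2 regions of the whole array were lower than D. In D, 4 of the 9 probes had no precipitated signal well above background on any array, so its mean and rank are uncertain.

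Region C, from 14943996 to 14945649, had log2 ratios of -4.21, -4.28 and -3.89 in restricted offspring and -4.36, -3.84 and -4.05 in controls. Region G, from 15162387 to 15164044, had -4.00, -4.11 and -3.65 against -4.21, -3.52 and -3.92. Region B, from 14937976 to 14939632, had -3.88, -4.04 and -3.57 against -4.09, -3.43 and -3.86. In all of these the same array was the lowest and the same the highest as in region D, and the groups overlapped. Precipitated signal was not well above background on any array for 1 of 7 probes in C, 3 of 8 in G and 2 of 8 in B. The order of the low regions of cluster 1 is therefore uncertain. Of the low regions of cluster 1, region H, from 15185382 to 15186836, lay nearest to the threshold, with -2.37, -2.64 and -2.06 against -2.69, -2.02 and -2.31. The remaining low regions, A (14914398 to 14916070), E (15032508 to 15034155), F (15123622 to 15125407) and J (15219590 to 15221207), had 6-array means between -3.67 and -3.25.

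The last regions of cluster 1 were not low. Region K, from 15389099 to 15390533, had log2 ratios of 0.20, -0.03 and 0.78 in restricted offspring and 0.07, 0.47 and 0.34 in controls. Region L, from 15439214 to 15440783, had -0.14, -0.034 and -0.36 against 0.037, -0.37 and -0.14. Both lay near the array median and spread to either side of 0, and in both the groups overlapped.

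In cluster 2, 7 of the 8 regions were under -2. The lowest was region O, from 26365550 to 26367174, with log2 ratios of -3.80, -4.09 and -3.35 in restricted offspring and -4.17, -3.43 and -3.71 in controls. Region Q, from 26431333 to 26432994, had -3.62, -3.85 and -3.18 against -3.93, -3.19 and -3.54. Region N, from 26348936 to 26350594, had -3.36, -3.65 and -2.96 against -3.77, -2.96 and -3.36. In all of these the lowest value again came from control array 1, and restricted array 3 and control array 2 were the highest pair. In regions Q and N 2 of 8 probes had no precipitated signal well above background on any array, and in region O 1 of 8. The order of the low regions of cluster 2 is therefore uncertain.

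Region M (26330772 to 26332431), the first of cluster 2, had a 6-array mean of -3.29, and regions P (26415306 to 26416924), S (26583106 to 26584706) and R (26447466 to 26449257) followed with -3.01, -2.99 and -2.65. Region T, from 26819370 to 26821045 and the last of cluster 2, was the exception. Its log2 ratio was 0.48, 0.62 and 0.65 in restricted offspring and 0.59, 0.59 and 0.53 in controls, the tightest set of values among the 19 regions. All 6 arrays were under -2 in each of the 16 low regions. On the array average over these 16, the log2 ratio was -3.46 ± 0.27 in restricted offspring and -3.45 ± 0.35 in controls (SD, n = 3).

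**Figure D1:**
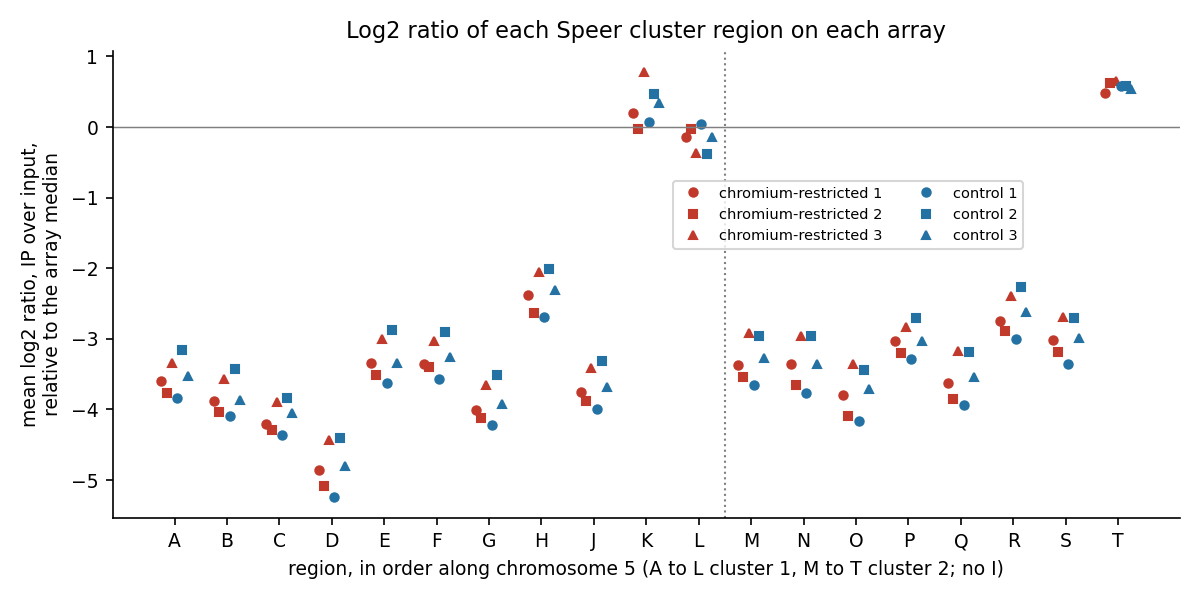
Mean log2 ratio of immunoprecipitated over input DNA (vertical axis, relative to the array median) for each region of the Speer clusters (horizontal axis, in chromosome order), with 1 point per array, red for chromium-restricted and blue for control. The 16 low regions lie under -2 on every array, regions K, L and T lie near or above 0, and red and blue points overlap in all 19 regions.

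The first and the last regions inside the windows were A and L in cluster 1 and M and T in cluster 2. Just before cluster 1, the nearest region, from 14513661, had a 6-array mean of 0.093, and just after it, the region from 16058309 had -1.36. In the latter, 6 of 9 probes had no precipitated signal well above background on any array, so its mean is uncertain. The nearest regions around cluster 2 started at 25264617 and 27142597 and had 0.052 and -0.42. Of these 4 neighbours, only the one at -1.36 lay more than 1 below the array median. Starts of neighbouring regions in cluster 1 lay 6020 to 169509 bp apart and those in cluster 2 16027 to 236264 bp, and a region spanned a median of 1657 bp.

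The low ratio of the 16 regions went with a bright input channel. Signals are given as the background-subtracted brightness, as the median over the probes of a region divided by the median over all probes of the array. The input signal of the low regions was 4.29 to 21.8 times the array median, as a mean over 6 arrays, with a median of 7.93. Region C was the brightest of them, with 21.8 times the array median and a range of 17.3 to 25.7 over the arrays, and 99.99% of all regions were dimmer. Of the 16, 11 were among the brightest 1% of regions on the array by input. Region P was the dimmest of the low regions in input, at 4.29 times the median, and still brighter than 96.8% of all regions.

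The immunoprecipitated channel of the same regions lay on either side of the array median. It was 0.408 to 1.49 times the array median over the 16 low regions, with a median of 0.693. Regions E, R, F, C, B and J were above the array median, and the others below it. Region E was the brightest, at 1.49 times the median, and region O the dimmest, at 0.408 times, where 17.5% of all regions were dimmer. By rank among all regions the low regions stood at 96.8% to 99.99% in input and at 17.5% to 65.9% in precipitated signal. Regions K, L and T had input signals of 0.405, 1.64 and 0.897 times the array median and precipitated signals of 0.527, 1.17 and 1.28 times. The ratio is built from both channels, so these values are no separate evidence on it. Copy number was not measured here, and its part in the bright input was not tested.

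**Figure D2:**
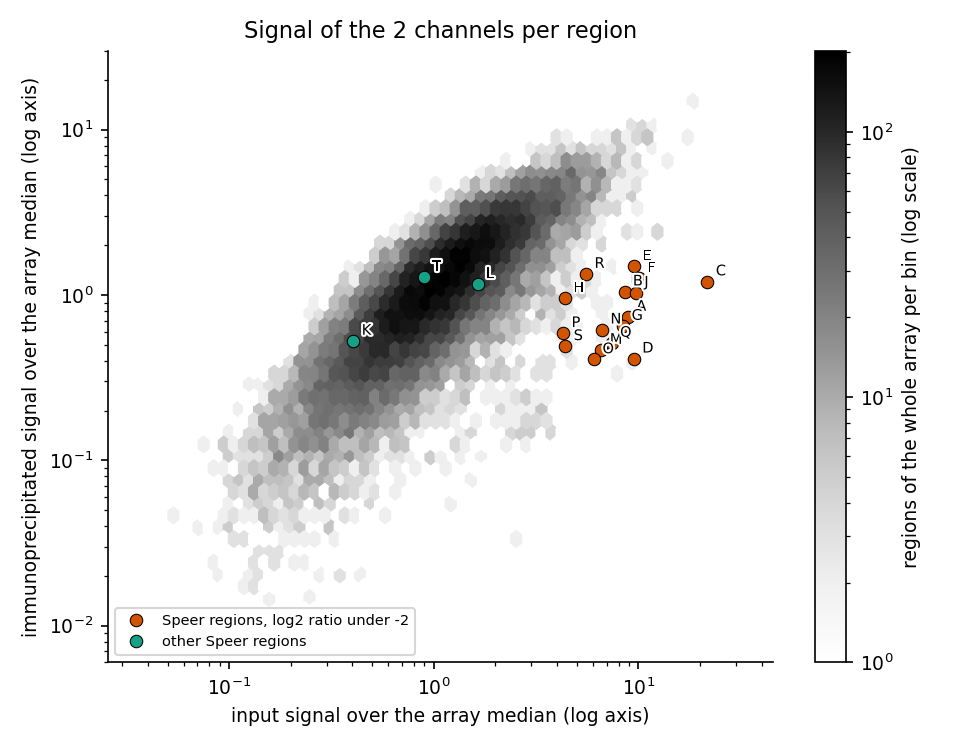
Input signal (horizontal) against immunoprecipitated signal (vertical) per region, each divided by the array median and averaged over 6 arrays, on log axes. Grey hexagons count all regions of the array, of which 17 with a vertical value under 0.006 are not drawn, and coloured points are the regions of the Speer clusters. The 16 low regions sit to the right of the grey diagonal, at 4.29 to 21.8 times the median input, and regions K, L and T sit within it.

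Per array, the median input signal over the 151 probes kept in both clusters was 7.57, 8.47 and 5.74 times the array median for the restricted samples. It was 8.75, 5.37 and 7.17 times for the controls. The precipitated signal was 0.666, 0.666 and 0.615 times the array median against 0.694, 0.647 and 0.641 times, and thus varied less between arrays. Of the 151 probes, 147 to 151 were well above background in the input channel and 115 to 117 in the precipitated channel, and 0 were saturated. These were 97.4% to 100% in input, beside 76.6% to 93.1% of all probes. In the precipitated channel they were 76.2% to 77.5%, beside 76.6% to 78.1% of all probes. On 34 probes the precipitated signal was not well above background on any array, beside 36499 of all 174278 unflagged probes. Of the 34, 32 were well above background in input on all arrays, so that their low precipitated signal is only a bound. The other 2, in region K, were not above background on all arrays in either channel, and no level can be read from them. The means of regions that hold such probes are uncertain to that extent. With the 113 probes whose red and green signals both stood well above background on each array, cluster 1 had a mean of -2.60 in place of -2.96 and cluster 2 one of -2.29 in place of -2.75. With normexp background correction the means were -1.95 and -1.78, and 13 regions in place of 16 were under -2.

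Single probes within a region differed by far more than arrays did. Of the 151 probes, 136 (90.1%) had a 6-array mean log2 ratio under 0 and 98 (64.9%) under -2, where 8.60% of all probes were under -2. Probes were 45 to 60 bases long. The shortest length, 45 bases, made up 33.1% of the cluster probes and 49.9% of all probes, and the longest, 60 bases, 18.5% and 13.2%. Probe sequences were not used here, so base composition could not be compared.

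The pattern of probes repeated from region to region. Where a low region had at least 8 probes, its first 8 were compared in order with those of every other such region, on the log2 scale of the mean input signal. The correlation had a median of 0.810 over the 91 pairs of 14 low regions, and 47 of them (51.6%) were over 0.8. Against the 13030 regions outside the clusters, the same 14 regions had a median correlation of -0.018, with 0.982% over 0.8. Correlations are over 8 probes that share arrays and probe design, and probes and pairs are not independent. Regions F and S stood apart, and without them the lowest of the 66 remaining correlations was 0.568. Read in reverse probe order, region S correlated with the 13 others at -0.275 to 0.803, against -0.792 to 0.392 in forward order. The highest reversed value, 0.803, was with region R, against -0.728 in forward order.

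The profiles of the log2 ratio were less clear, since in each of regions A, B, E, J, M, N, P and Q 2 of the first 8 probes were not well above background in the precipitated channel on any array. Over all 8 probes, and in sets noticed after the profiles had been seen, the ratios correlated at 0.766 to 0.980 among regions A, B, E and J (6 pairs) and at 0.771 to 0.988 among regions M to Q (10 pairs). Between these sets they correlated at -0.43 to 0.20 (20 pairs). Over only the probes well above background in both regions of a pair, a choice made after seeing the data, the ranges were 0.531 to 0.991 on 6 probes, 0.017 to 0.931 on 5 or 6 probes, and -0.16 to 0.784 on 4 probes between the sets. These ranges overlapped, with medians of 0.722, 0.582 and 0.460. The filter also left fewer probes per pair, so what the separation over 8 probes rested on was not tested. Over all 8 probes the pattern did not follow the clusters throughout. Region D of cluster 1 correlated at 0.64 to 0.73 with M to Q and at -0.41 to -0.14 with A, B, E and J. Region R of cluster 2 correlated at -0.50 to -0.066 with M to Q and at 0.395 to 0.62 with A, B, E and J. In region D, however, 3 of the first 8 probes were not well above background in the precipitated channel on any array. Over only the probes well above background in both regions, D correlated at 0.544 to 0.933 with M to Q on 4 or 5 probes. With A, B, E and J the values of D were then 0.111 to 0.611 on 4 probes, so its negative correlations did not hold. Region R was compared over all 8 probes only.

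In regions A, B, E and J the sixth and the eighth probe were those without a measured precipitated signal, and no level is given for them. In regions M, N, P and Q the sixth probe, 1025 to 1070 bp from the first, was measured on all arrays and had the highest log2 ratio of its region, with 0.48, -0.82, 0.52 and -0.85. In region O it was -2.40 and not the highest. The sequences of the regions were not compared, and whether they take up the same DNA was not tested.

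**Figure D3:**
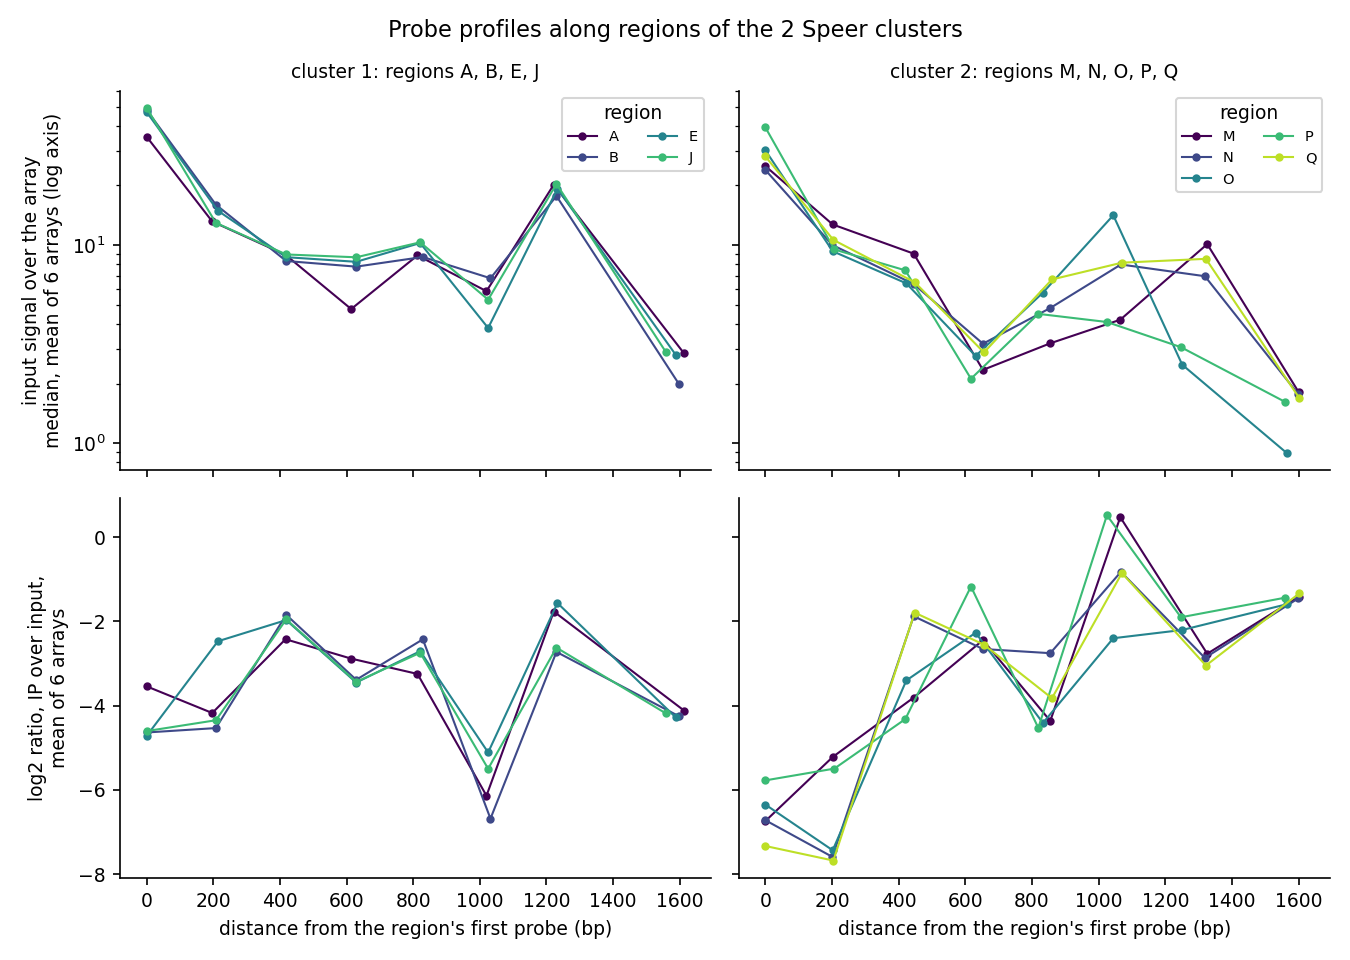
Input signal over the array median (upper panels, log axis) and log2 ratio (lower panels) of each probe, as means over 6 arrays, against the distance in bp from the first probe of the region. Lines are regions A, B, E and J of cluster 1 (left) and M to Q of cluster 2 (right). The input is highest at the first probe in all 9 regions, while the sixth probe is the highest in ratio in 4 of the 5 regions on the right. On the left, the ratios of the sixth and eighth probes rest on precipitated signals not well above background.

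Differences between arrays ran through all low regions together. Averaged over the 16, the log2 ratio was -3.80 on control array 1, -3.70 on chromium-restricted array 2, -3.52 on chromium-restricted array 1, -3.45 on control array 3, -3.17 on chromium-restricted array 3 and -3.10 on control array 2. The median input signal of the whole array was 98.4, 83.9, 53.1, 60.5, 46.1 and 38.1 scanner units in the same order, so that arrays with a brighter input had lower ratios in these regions, except that chromium-restricted array 1 and control array 3 changed places. Control array 1 was the lowest in 16 of the 16 low regions. The highest was control array 2 in 11 and chromium-restricted array 3 in 5. The SD over the 6 arrays was 0.21 to 0.34 in the low regions, more than in 90.3% to 99.1% of all regions. Its median was 0.277 there, beside 0.295 over all 345 regions under -2 on the array. In low regions of the vomeronasal, zinc finger and major urinary protein clusters compared below, the median SD was 0.345, 0.243 and 0.270. A large spread was thus not particular to the Speer clusters. Region T had an SD of 0.062. The part of input brightness in these differences between arrays was not tested.

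The comparison of the diets asked whether methylation in these clusters depended on what the dams had been fed. It was fitted with limma over all 21987 regions and all 174278 unflagged probes, and p-values were adjusted over all of them by the Benjamini-Hochberg method. Differences are chromium-restricted minus control. Of the 19 regions, 0 passed an adjusted p of 0.05 (0% of all regions did), and 0 had an unadjusted p under 0.05 (0.896% of all regions). The groups overlapped in all 19, while they did not overlap in 4.44% of all regions.

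As log2 differences, the 19 regions spanned -0.059 to 0.051, 8 above 0 and 11 below. Their median size was 0.022, beside 0.048 over all regions. The SE of the difference was 0.078 to 0.225, with a median of 0.18, and each difference was smaller than its own SE. The 95% confidence intervals reached from -0.50 at the lowest to 0.55 at the highest, so differences of up to that size in a single region are not excluded by these arrays. In cluster 1 as a whole the mean log2 ratio was -2.97 ± 0.22 in restricted offspring and -2.95 ± 0.28 in controls, and in cluster 2 it was -2.75 ± 0.26 and -2.76 ± 0.31 (SD, n = 3).

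The smallest unadjusted p in cluster 1 belonged to region A. Its means were -3.57 ± 0.21 in restricted offspring and -3.51 ± 0.34 in controls (SD over 3 arrays). Region A thus differed by -0.059, with an SE of 0.17 and a 95% interval from -0.46 to 0.34 (limma unadjusted p = 0.745, adjusted p = 0.99996). Regions C and G followed with differences of -0.045 (SE 0.15) and -0.040 (SE 0.18). In cluster 2 region S had means of -2.96 ± 0.26 and -3.01 ± 0.33, and differed by 0.051, with an SE of 0.18 and a 95% interval from -0.36 to 0.46 (limma unadjusted p = 0.786, adjusted p = 0.99996). Region R differed by -0.046 (SE 0.19) and region T by 0.018 (SE 0.078). The difference of region T was -0.24 when the 1 flagged probe of the clusters was kept, and it was -0.0092 with bright probes only and -0.063 in the authors' deposited table. Single arrays also set the direction elsewhere. Without control array 2, regions A, C, G and R differed by 0.11, 0.077, 0.14 and 0.14, and without chromium-restricted array 2 by 0.040, 0.033, 0.055 and 0.062. Region S differed by -0.12 without control array 1 and by -0.088 without chromium-restricted array 3.

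Each scan held 1 array of either group, which allows no test within a scan. Over the 16 low regions, the chromium-restricted array was higher in 16 in scan 1, by 0.28 on average, and in 16 in scan 3, also by 0.28. In scan 2 it was lower in all 16, by 0.59 on average (a difference of -0.59). The direction thus turned between scans. Slide position 2 held the restricted arrays and position 4 the controls, so position and diet cannot be told apart. With the log2 median input signal of the array as a covariate, the SE of the 19 regions had a median of 0.076 in place of 0.18. The differences then lay between -0.081 and 0.027, and the lowest adjusted p was 0.999 in limma.

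**Figure D4:**
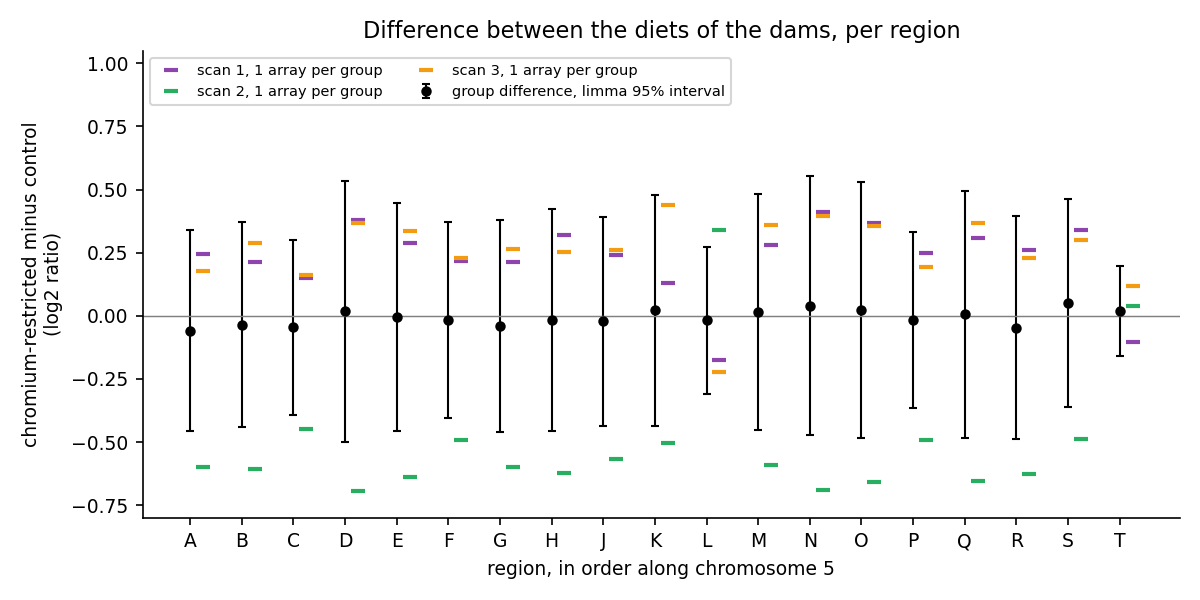
Chromium-restricted minus control difference of the log2 ratio (vertical axis) for each region of the Speer clusters in chromosome order. Black points are the group differences with limma 95% confidence intervals (n = 3 per group), and coloured dashes are the differences within each scan, 1 array per group. All 19 intervals include 0, and scan 2 lies below 0 and scans 1 and 3 above 0 in each of the 16 low regions.

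Among the 151 single probes, 0 passed an adjusted p of 0.05 (0% of all probes did) and 0 had an unadjusted p under 0.05 (1.3% of all probes). The groups did not overlap in 2 probes, or 1.32% of the 151, beside 4.27% of all probes. One of them, in region L and starting at 15439631, had log2 ratios of 1.28, 1.49 and 0.97 in restricted offspring and 1.53, 1.51 and 1.69 in controls. Its difference was -0.33 (SE 0.18; limma unadjusted p = 0.106), and region L was not among the low ones. The other, in region S and starting at 26583312, had -0.58, -0.73 and -0.62 against -1.06, -0.74 and -0.91, a difference of 0.26 (SE 0.15; limma unadjusted p = 0.132). The probes with the next smallest p started at 15124118 in region F and at 14915418 in region A, with a difference of -0.20 (SE 0.16) in the first. The second was not well above background in the precipitated channel on any array, so no difference is given for it.

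Low ratios are also found in clusters of other tandem gene families, and 3 of these are given for comparison, without a test since all were chosen for their low values. In the vomeronasal receptor cluster on chromosome 7, 78 of 112 regions were under -2, in the zinc finger cluster on chromosome 2 26 of 34, and in the major urinary protein cluster on chromosome 4 17 of 22. The median input signal of their low regions was 2.53, 2.31 and 2.93 times the array median, and that of the 16 low Speer regions was 7.93 times. The highest input of any low region in these 3 clusters was 5.58, 4.14 and 5.16 times the median, and 12 of the 16 low Speer regions lay above all of these. The precipitated signal had medians of 0.242, 0.636 and 0.271 times the array median in their low regions and 0.693 times in the Speer regions. The low ratios were -2.90, -2.37 and -2.65 as medians in those clusters and -3.44 in the Speer clusters. Over the rest of chromosome 5, the median input was 1.21 times the array median, the median precipitated signal 1.22 times, and 20 of 1248 regions (1.60%) were under -2.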

How the data were processed

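DNA methylation was measured on 6 arrays, 3 per diet of the dams. Per the labels, precipitated DNA carried Cy5 (red) and input DNA Cy3 (green) on each array, with no dye swap. Per the file headers, the deposited intensity values came from Agilent Feature Extraction 11.0.1.1, with background subtracted and a linear dye factor per channel of 3.79 to 11.6, on an array design of build mm9. The authors' deposited value table holds log ratios, taken here as log2, whose base, centring and normalization are not stated. It was centred on each array's median and served as an alternative. The deposited scanner flags (other values) set filters.

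For the main values, the log2 ratio of processed red over green was centred on the median of each array, with no loess or quantile step, over all probes that are not controls. The 5827 control spots per array and 360 probes with an outlier flag, 1 of them in the clusters, were left out. Regions were fitted with limma 3.58.1 in R 4.3.3. The fit was also run on simulated regions with independent noise. The low regions here moved together across arrays, so that run does not speak to them. Promoters were aligned with Biopython 1.88 and plotted values drawn with matplotlib 3.10.9 in Python 3.11.15. Precision is limited by the number of arrays.

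The members, lists and compared clusters were chosen with earlier results of these data known. Regions were named by rule: per cluster the lowest 4, the highest 3, the smallest 3 by p, those without overlap and those at the edges, and 4 probes by p. The normexp alternative used median spot signals, since mean signals were not used here. Alternatives covered background, dim and flagged probes, the authors' table, quantile scaling, region rules, the replicate block, an input covariate and each array left out. Arrays of one number shared a scan. Arrays with a number in common deviated from their group means with correlations of 0.145, -0.591 and 0.197, so the numbers were not taken as pairs beyond the scan.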

Additional observations from a re-analysis of the deposited data

How the results depend on the processing

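Counts of regions and probes past an adjusted p of 0.05 in limma were 0 under every alternative run, and so was the count of regions at an unadjusted p under 0.05. For probes that count was 0 except for 1 with the input covariate (region S, start 26583312), 1 without chromium-restricted array 2 (region L, start 15439631) and 1 without control array 2 (region M, start 26331425), a range of 0 to 1 when an array was left out. Under a replicate block (arrays of one scan) 0 regions and 0 probes passed, and 0 of either had an unadjusted p under 0.05. The 16 regions under -2 numbered 13 with normexp and 15 or 16 under the other alternatives. The mean of cluster 1, -2.96, was -1.95 with normexp, -2.60 with bright probes only and -2.39 in the authors' table. That of cluster 2, -2.75, was -1.78, -2.29 and -2.21, and -2.43 with the median over probes. With an array left out they ran from -3.02 to -2.91 and from -2.81 to -2.69. The difference between diets ran from -0.16 to 0.12 in cluster 1 and from -0.15 to 0.16 in cluster 2. Single regions turned direction: region A was 0.0086 in the authors' table, and region T -0.0092 with bright probes only, -0.24 with flagged probes kept and -0.063 in the authors' table. With an array left out, region A ran from -0.22 to 0.11, C from -0.18 to 0.077, G from -0.21 to 0.14, R from -0.23 to 0.14, S from -0.12 to 0.21 and T from -0.016 to 0.070. The cause was not tested. With quantile scaling, a gap of 500 bp or any 1 array left out, 16 regions were under -2. On 34 of the 151 probes the precipitated signal was not well above background on any array, beside 36499 of all 174278 unflagged probes.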

Other observations

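Outside the clusters, 20 other regions of chromosome 5 were under -2. The nearest were single regions from 16980712 to 16982352, with a 6-array mean log2 ratio of -3.15 and an input of 8.39 times the array median, and from 27827434 to 27829062, with -3.96 and 9.16 times. These inputs lie within the range of the low Speer regions, and the windows of the rule do not include them.

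Between 94 and 97 Mb of chromosome 5, 12 of 17 regions were under -2, a stretch noticed after the values had been seen. Their input had a median of 3.13 times the array median and their precipitated signal one of 0.547 times. The mean log2 ratio of these 12 was -2.93 ± 0.33 in restricted offspring and -2.90 ± 0.36 in controls (SD, n = 3). The groups overlapped in all 12, and 0 had an unadjusted p under 0.05 in limma.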
